A study of Homo sapiens with 102 samples.

Results

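The libraries described here are those of K562 cells that received trametinib together with YM115, set against the libraries of the same screens that received solvent from both drug sources. Members were taken by their titles, and 12 of the 102 libraries of the series carried this drug pair. They were compared with 6 DMSO_DMSO solvent libraries, 12 libraries with trametinib and DMSO, and 12 libraries with YM115 and DMSO. K562 is an established chronic myeloid leukaemia line whose labels name the BCR-ABL fusion, and it is 1 line, so every group shares that genotype. Single cells were enclosed in picolitre droplets with a drug from each of 2 sources and a barcode fragment per drug, and were incubated for 12 h. The labels give no dose for either compound. Each library pools the droplets of 1 drug pair, so a level is an average over cells, and fewer cells cannot be told apart from less RNA per cell. The spelling YM115 is that of the labels. In the study this compound is called YM155. DMSO is the solvent of the drugs, and each single-drug library also holds DMSO from the other source. The pair was made in both orders, Trametinib_YM115 and YM115_Trametinib, with 6 libraries each. The labels do not settle which of the 2 names was injected from which source. Each order was made in 3 runs of the dT screen and 3 runs of the Bio screen, in which the 2 barcode fragments were swapped between the drug sources. The runs are the replicates, and the fits remove the level of each screen and run. The p-values therefore measure the spread left between libraries within screen and run, in 1 cell line. Both orders of a run enter as separate pair libraries, although they come from the same run.

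Trametinib inhibits the kinases MEK1 and MEK2, which pass signals from RAS and RAF to ERK, and ERK in turn raises the transcription of early response genes. In K562 cells BCR-ABL drives this cascade. YM155 is known as a suppressant of the expression of survivin (BIRC5), a mitotic and anti-apoptotic protein, and enters cells through the transporter SLC35F2. K562 cells make embryonic and fetal globins, and cells of this line can be driven further along the erythroid path by several compounds. Metallothioneins are small cysteine-rich proteins that bind zinc and copper, and their genes are switched on through metal response elements in the promoter.

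MT1X and MT2A are shown because MT1X passed the test in the pair and MT2A, another abundant metallothionein, did not. The windows are the 250 bases before the RefSeq transcription start, 5′ to 3′ on the + strand of GRCh38.p14, at chr16:56682220-56682469 for MT1X and chr16:56608334-56608583 for MT2A. Capitals mark non-overlapping matches on either strand to the metal response element cores TGCACNC and TGCGCNC.
MT1X: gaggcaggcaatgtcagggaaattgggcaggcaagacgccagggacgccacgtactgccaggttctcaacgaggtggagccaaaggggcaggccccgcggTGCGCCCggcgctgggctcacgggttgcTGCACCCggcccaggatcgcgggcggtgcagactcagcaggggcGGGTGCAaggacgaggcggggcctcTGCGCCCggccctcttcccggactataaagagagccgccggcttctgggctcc
MT2A: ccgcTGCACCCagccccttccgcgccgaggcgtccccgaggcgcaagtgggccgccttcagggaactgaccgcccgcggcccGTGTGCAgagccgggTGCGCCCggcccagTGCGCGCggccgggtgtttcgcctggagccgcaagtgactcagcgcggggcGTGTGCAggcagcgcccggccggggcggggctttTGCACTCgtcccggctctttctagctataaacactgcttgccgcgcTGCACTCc
The MT1X window held 4 cores and the MT2A window 7, and each held 1 TATAAA. Of 35114 RefSeq promoter windows of the same length, 24.8% held a core of either kind and 0.37% held at least 4. These matches describe letters and were not tested as binding sites.

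The pair libraries were deeper than the solvent libraries, which touches every comparison with solvent. Total counts ranged from 259662 to 518396 in the dT pair libraries and from 174365 to 198316 in dT solvent, and from 150237 to 433966 against 81806 to 147320 in the Bio screen. Within the 6 blocks of screen and run, mean totals were 354538 against 149523, higher in the pair in 6 of 6 blocks (two-sided exact permutation test within blocks, p = 0.001372, the smallest that the 729 assignments allow, adjusted p = 0.004116 over 3 measures). Detected genes, those with at least 1 count, averaged 3152.08 against 2062.5, also higher in 6 of 6 blocks (exact permutation p = 0.005487, adjusted p = 0.005487). The mitochondrial share of counts was 4.25% against 5.81% and was higher in the pair in 1 of 6 blocks (exact permutation p = 0.004115, adjusted p = 0.005487). In the dT screen it ran from 3.51% to 4.52% in the pair and from 5.70% to 7.33% in solvent, with no overlap, while in the Bio screen the ranges were 3.45% to 4.97% and 3.11% to 6.61%. With each library thinned to the lowest total, the log2 fold changes of the 2 genes called below were 0.67 for HBG2 (adjusted p = 0.0044) and 1.09 for MT1X (adjusted p = 0.0909). The part of the mitochondrial share in the differences between genes was not tested. The separate DMSO controls, made outside the drug layout, had 5501 to 10361 detected genes and up to 36.9% mitochondrial counts, and were therefore used only in an alternative. Among the K562 markers, HBG2 was counted in 18 of the 18 pair and solvent libraries, HBZ in 17, PRAME in 15, HBE1 in 14 and GATA1 in 12. Of 12 myeloid and lymphoid markers measured, 9 were at 0, and among the other 3 CD3D was counted in 4 libraries and PTPRC in 3. The summed level of those 12 markers ranged from 0 to 363 CPM (counts per 1000000 counts of the library) in dT pair libraries and 0 to 241 CPM in dT solvent, and from 0 to 1092 CPM against 0 to 191 CPM in the Bio screen. Of 6 megakaryocyte markers, ITGA2B and TUBB1 each had a count in 1 library and the other 4 were at 0.

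**Figure D1:**
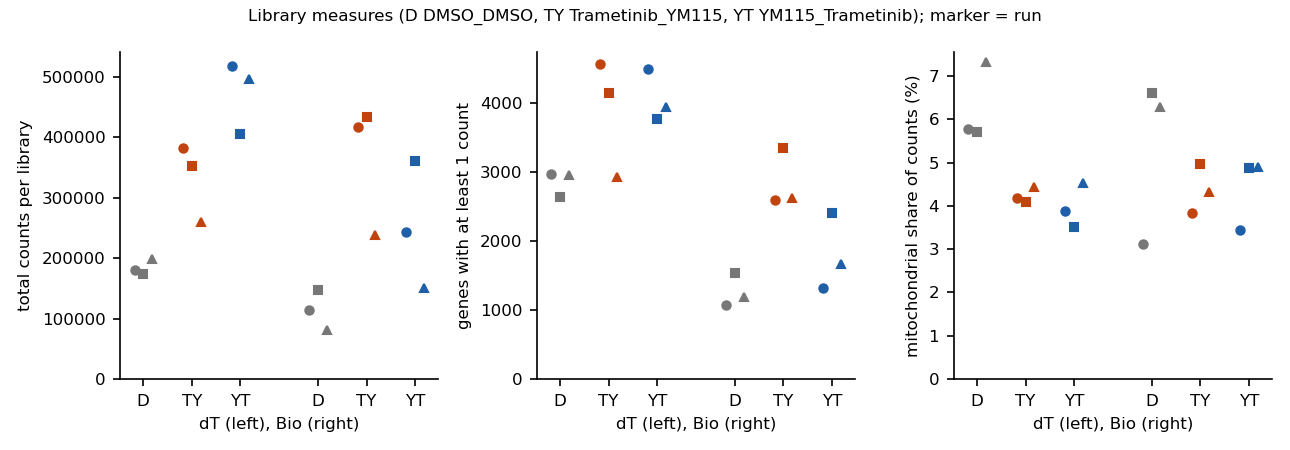
Total counts, detected genes and mitochondrial percent of counts of each pair and solvent library by screen (D, DMSO_DMSO; TY, Trametinib_YM115; YT, YM115_Trametinib), 1 point per library and 1 marker shape per run. Pair libraries reach 518396 counts and solvent libraries 198316, and in the dT screen the mitochondrial percents of pair and solvent do not overlap.

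With both screens and both orders together, 2 of 1622 genes tested rose in the pair against solvent and 0 fell, that is 0.123% called (edgeR's quasi-likelihood test, Benjamini-Hochberg adjusted p under 0.05). The 2 genes were HBG2, which codes for a fetal globin chain, and MT1X. A gene counted only in the 6 solvent libraries cannot reach the count filter, whereas one counted only in the 12 pair libraries can. The 0 that fell therefore holds for this filter. With filterByExpr, PYCR1 (−10.49) and HSDL1 (−9.16) were called lower. Before adjustment 179 genes (11%) were under 0.05, 155 of them higher and 24 lower, and DESeq2 called 136 higher and 34 lower. The median log2 fold change of all genes tested was 0.79, and 1139 of the 1622 (70.2%) were positive. Among the 149 genes counted in all 18 libraries, which are less exposed to counts of 0, the median was 0.25 and 101 (67.8%) were positive. A gene's fold change is therefore given beside these medians.

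HBG2 (ENSG00000196565, chromosome 11, minus strand, GENCODE span 5253190 to 5505605) had 32150, 28410 and 70230 CPM in runs 1 to 3 of Trametinib_YM115 in the dT screen, 33170, 38820 and 57580 CPM in YM115_Trametinib, and 29700, 27910 and 37740 CPM in solvent. The Bio HBG2 levels were 42860, 26590 and 28520 CPM in Trametinib_YM115, 46130, 29710 and 25320 CPM in YM115_Trametinib, and 23910, 14400 and 15370 CPM in solvent. Each of the 12 pair libraries was above the solvent library of its own screen and run, as held for 8 genes (0.493%). The Bio ranges did not overlap, while the dT ranges did. The fitted log2 fold change of HBG2 was 0.81 (SE 0.14), a 1.75-fold higher level, with an adjusted p of 0.0276. That value lies near the median of all genes tested and above the median of the genes counted in all libraries. The HBG2 call was lost (adjusted p up to 0.283) when any Bio solvent library, Bio Trametinib_YM115 run 1, Bio YM115_Trametinib run 1 or 2, dT Trametinib_YM115 run 3, dT YM115_Trametinib run 2 or all of run 3 was left out, with log2 fold changes from 0.69 to 0.95 over the 21 refits. The span of HBG2 overlaps HBE1, and 46.5% of the 59-base windows of HBG2 transcripts occur in HBG1, its near-identical neighbour, so reads of the fetal globin genes may be split between them. HBG1 was counted in 4 of the 18 libraries, and summing such families left the HBG2 result at 0.79 (adjusted p = 0.028), an alternative chosen after seeing the data.

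MT1X (ENSG00000187193, chromosome 16, plus strand, span 56682424 to 56684196) had 3677, 5010 and 6770 CPM in dT Trametinib_YM115, 5737, 6912 and 6591 CPM in dT YM115_Trametinib, and 3310, 1474 and 2360 CPM in dT solvent. These ranges did not overlap. Bio levels of MT1X were 20400, 7961 and 15810 CPM in Trametinib_YM115, 24990, 16650 and 23710 CPM in YM115_Trametinib, and 5715, 8254 and 17160 CPM in solvent, and here pair and solvent overlapped. MT1X was above its own solvent library in 10 of 12 pair libraries. The log2 fold change was 1.26 (SE 0.25), a 2.39-fold higher level, with an adjusted p of 0.0493. The call is at the edge of the threshold. It held in 5 of 21 refits, those without Bio solvent run 3, Bio Trametinib_YM115 run 2 or 3, dT solvent run 1 or dT Trametinib_YM115 run 1, and over the other 16, which left out each remaining library or a whole run, the adjusted p reached 0.508 with log2 fold changes between 1.01 and 1.45.

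MT2A, whose promoter is printed above beside that of MT1X, had 6128 to 10570 CPM in dT pair libraries against 5028 to 7008 CPM in dT solvent, and 21110 to 40390 CPM against 29490 to 39500 CPM in the Bio screen. Its log2 fold change was 0.36 (SE 0.13, adjusted p = 0.231), below the all-gene median, and in the Bio screen the sign of the value depended on the scaling. All 8 metallothioneins tested had a positive fold change with TMM scaling (median 0.85), against 7 of 8 with RLE scaling or library totals only, and 1 of the 8 passed. The 4 of them counted in all 18 libraries had a median of 0.40. Summed over the family, the dT pair libraries held 11160 to 19390 CPM against 9452 to 10480 CPM in solvent, whereas the Bio ranges of 36920 to 72300 CPM and 40190 to 61710 CPM overlapped.

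**Figure D2:**
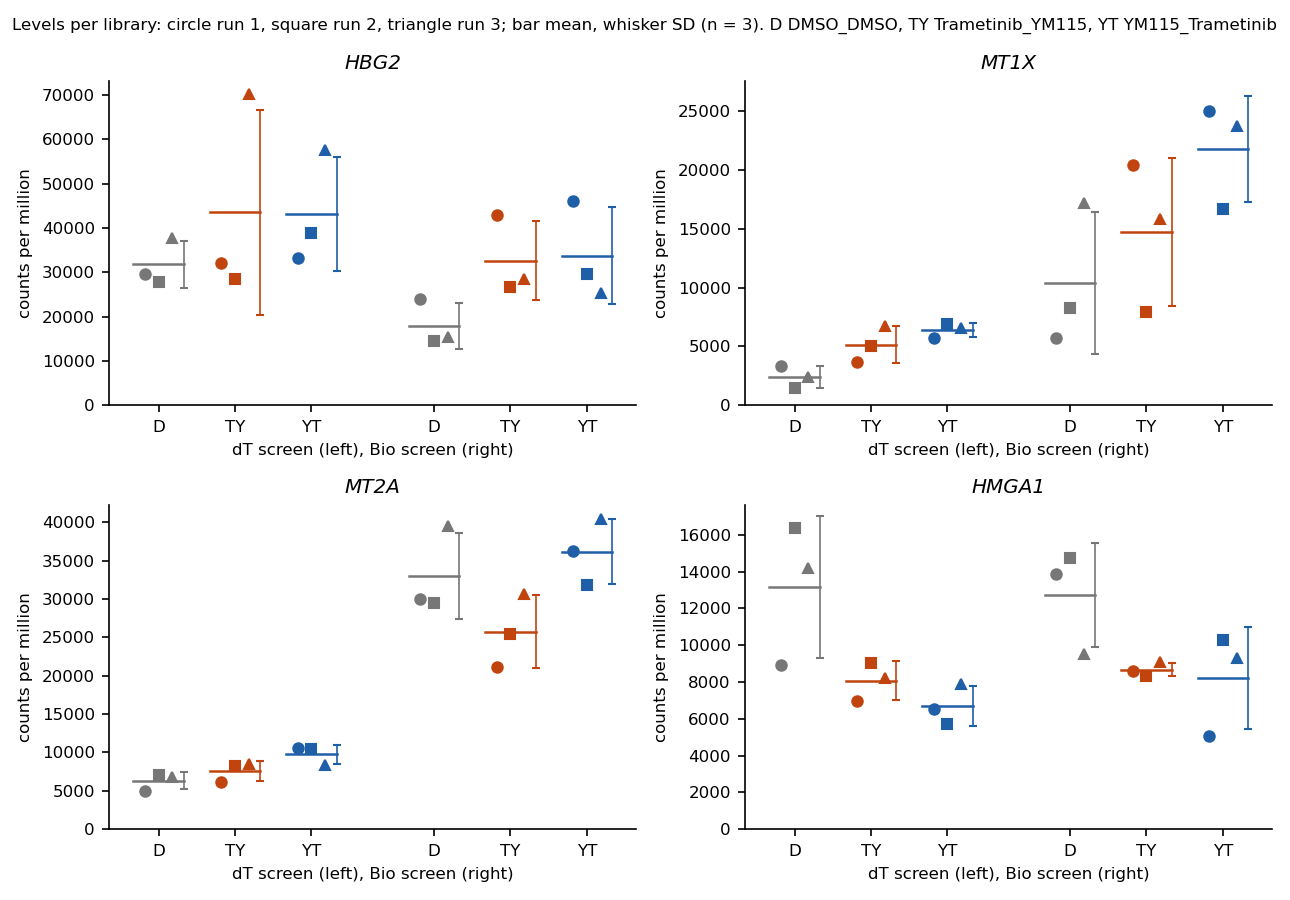
CPM of HBG2, MT1X, MT2A and HMGA1 in each pair and solvent library, 1 point per library, by screen and treatment order on a linear axis, with the mean as a bar and the SD of the 3 runs as a whisker (D, DMSO_DMSO; TY, Trametinib_YM115; YT, YM115_Trametinib). HBG2 is above solvent without overlap in the Bio screen, MT1X in the dT screen, and HMGA1 lies below the solvent library of its own run in 12 of 12 pair libraries.

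Screen by screen, 0 of 2385 genes passed in the dT screen (0% called, edgeR's quasi-likelihood test, with 233 genes, 9.77%, under 0.05 before adjustment and 165 called by DESeq2). In the Bio screen 1 of 985 passed (0.102%), and this was HBG2 with a fitted log2 change of 1.15 (SE 0.15, adjusted p = 0.00423), beside an all-gene median of 0.81 in that screen. Without Bio solvent run 2 the HBG2 value was 1.04 and its adjusted p 0.0904. The dT value of HBG2 was 0.56 (SE 0.13, adjusted p = 0.422), and the difference between screens was not past the threshold (adjusted p = 0.349). MT1X had log2 fold changes of 1.48 (SE 0.37) in the dT screen and 1.12 (SE 0.31) in the Bio screen, neither of which passed alone.

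The pair effect differed between the screens for 1 of 1622 genes (0.0617%), with 138 (8.51%) under 0.05 before adjustment. CYBA, which codes for the p22phox subunit of the NADPH oxidase, was counted in all 48 libraries of the dT drug layout, with a median of 1373 CPM. In that screen it had 1338, 1456 and 924 CPM in Trametinib_YM115, 2386, 2593 and 3106 CPM in YM115_Trametinib, and 166, 1331 and 1296 CPM in solvent. Its levels in the Bio screen were 1854, 1728 and 1125 CPM in Trametinib_YM115 and 753, 2836 and 2210 CPM in YM115_Trametinib, but 0 counts in each of the 3 solvent libraries. The pooled Bio pair level of 1806 CPM was at least 207.2-fold higher than the limit that 3 counts over the solvent group allow, 8.719 CPM. Of the 44 Bio libraries of the layout that were used, 6 had no CYBA count, and the solvent libraries were 3 of them. The fitted difference of the effects, dT minus Bio, was −10.67 in log2 units, with an SE of 1.85 and an adjusted p of 0.0469, a size that depends on the prior count of the fit. The call held in 2 of 21 refits, those without Bio YM115_Trametinib run 1 or dT solvent run 1, and otherwise the adjusted p reached 0.648, with each other library or run left out in turn.

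The order of the drugs answers whether the 2 ways of making the pair gave the same readout. Against solvent, 2 of 1622 genes passed in Trametinib_YM115 (0.123%), CHPT1 and HBG2, both higher. The HBG2 call in this order (0.88) was lost in 14 of 21 refits that left out a library or a run, with an adjusted p of up to 0.429, and also without the replicate block and with library totals only. In YM115_Trametinib 0 of 1622 passed (0%), with 148 (9.12%) under 0.05 before adjustment, 126 called by DESeq2 and a smallest adjusted p of 0.0749 in edgeR's quasi-likelihood test. The order difference itself passed for CHPT1 and PPM1N, 2 of 1622 genes (0.123%), both higher in Trametinib_YM115, and 98 genes (6.04%) were under 0.05 before adjustment. Both were counted in 9 of the 18 libraries, the fewest that the count filter allows, and reached it through the order in which they were high, so these calls are given as a description. Where a count in 50% of the libraries of each treatment was required, 0 genes passed.

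CHPT1, which codes for a cholinephosphotransferase that makes phosphatidylcholine, separated the orders without overlap. It had 5956, 8764 and 4487 CPM in dT Trametinib_YM115 but 68, 0 and 0 CPM in dT YM115_Trametinib and 22, 0 and 10 CPM in dT solvent. In the Bio screen CHPT1 had 5503, 5305 and 11450 CPM in Trametinib_YM115 and 0 counts in the 3 YM115_Trametinib and 3 solvent libraries. The pooled Bio level in Trametinib_YM115 was at least 1688-fold higher than 3 counts over the YM115_Trametinib libraries and at least 771-fold higher than 3 counts over solvent. Elsewhere in the layout CHPT1 was counted in 21 of 45 dT and 9 of 41 Bio libraries, with a median of 0 CPM, and the highest values, 912 and 1402 CPM, were both from Trametinib_DMSO. The fitted order difference was 12.40 (SE 1.5, adjusted p = 0.000235), a size that depends on the prior count because most YM115_Trametinib libraries had no count. CHPT1 fell under the count filter in 10 of 21 refits, among them each one that left out a single Trametinib_YM115 library, so the refits do not measure its stability.

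PPM1N, which codes for a protein phosphatase of the PP2C family, was near the limit of counting. Its 3 dT Trametinib_YM115 libraries had 19, 7 and 8 counts and its Bio ones 3, 5 and 3, against at most 1 count in any YM115_Trametinib or solvent library. The fitted order difference of PPM1N was 4.43 (SE 0.84, adjusted p = 0.0421), and the call was lost in 11 of 11 refits. Elsewhere PPM1N reached 249 CPM in the dT screen, in Imatinib_DMSO, so the level was not the highest of the layout. HBG2 and MT1X differed little between the orders. The HBG2 order difference was 0.15 (SE 0.16) and that of MT1X −0.29 (SE 0.26), neither past the threshold.

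**Figure D3:**
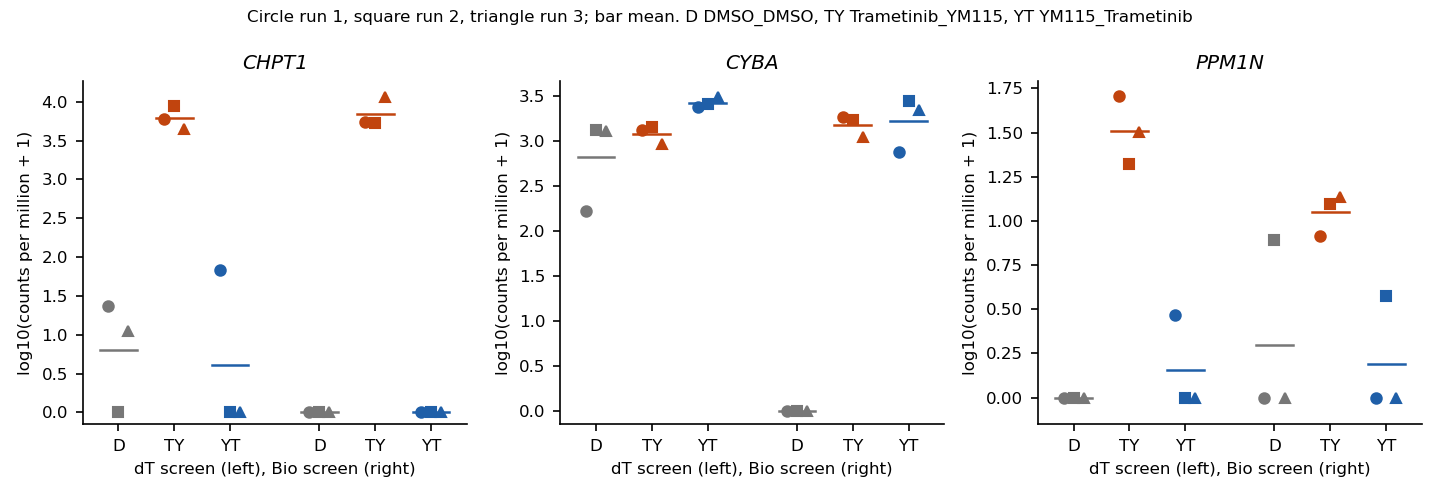
CPM of CHPT1, CYBA and PPM1N in each pair and solvent library by screen and order, as log10 of CPM plus 1, with 1 point per library, a bar at the mean of the log values and libraries without a count at 0. CHPT1 is above 4000 CPM only in the 6 Trametinib_YM115 libraries among those drawn, and CYBA is at 0 in the 3 Bio solvent libraries.

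Set against each drug alone, the pair differed from trametinib in 3 of 1384 genes (0.217%, with 99 or 7.15% under 0.05 before adjustment) and from YM115 in 0 of 1384 (0%). For the second comparison 85 genes (6.14%) were under 0.05 before adjustment in edgeR's quasi-likelihood test, and DESeq2 called 40. One Bio DMSO_Trametinib library with 808 detected genes was left out, so 41 of 42 libraries of the 4 treatments entered. The genes that fell in the pair against trametinib were FTL, which codes for the light chain of the iron store ferritin, and its processed copy FTLP3, and the gene that rose was HBG2.

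FTL had 4004 to 6144 CPM (median 4380) in the 6 dT pair libraries, 7147 to 19470 CPM (median 12170) in trametinib alone, 3632 to 7468 CPM (median 5266) in YM115 alone, and 7157 to 11740 CPM in the 3 solvent libraries. The dT trametinib libraries fell apart by order, at 17990, 14250 and 19470 CPM in DMSO_Trametinib and 8136, 10090 and 7147 CPM in Trametinib_DMSO, and those of Trametinib_DMSO lay within or near the solvent range. Bio libraries had 2867 to 7555 CPM of FTL (median 5529) in the pair, 9110 to 13170 CPM (median 10840, n = 5) in trametinib, 4554 to 8790 CPM (median 6456) in YM115, and 5641 to 12120 CPM in solvent. Pair and trametinib did not overlap in either screen, and pair and YM115 did. The log2 fold change of FTL in the pair was −1.28 (SE 0.17, adjusted p = 5.04e-06) against trametinib, a level of 0.413 times, and the call held in each of 21 refits. Among 11 other settings the FTL call was lost in 1, with an adjusted p of 0.76. Against YM115 alone the FTL value was −0.12 (SE 0.16). Relative to solvent, trametinib alone lay 0.73 higher (SE 0.21, adjusted p = 0.223) and the pair stood at −0.55 (SE 0.20, adjusted p = 0.191), in the same fit, neither past the threshold. FTLP3 had a value of −2.58 (SE 0.48, adjusted p = 0.00307) against trametinib, a call lost when any whole run was left out (adjusted p up to 0.515). The FTLP3 call was also lost in 2 of 9 other settings (adjusted p up to 0.795). Of its 59-base windows 24.9% occur in FTL transcripts, so its reads may come from FTL.

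HBG2 in the pair was 0.58 higher on the log2 scale than in trametinib alone (SE 0.11, adjusted p = 0.00372) and 0.15 higher than in YM115 alone (SE 0.11), which did not pass. The call against trametinib was lost when any whole run was left out, with an adjusted p of at most 0.198 over these refits. It was also lost without the replicate block (adjusted p = 0.0949) and with no filter (adjusted p = 0.776). HBG2 levels were 20630 to 44680 CPM (median 28770) in dT trametinib and 31970 to 69140 CPM (median 36950) in dT YM115. In the Bio screen they were 16290 to 26300 CPM (median 19520) and 24220 to 38640 CPM (median 30770). YM115 alone, which shares the solvent libraries with the pair, also had a higher HBG2 than solvent, at 0.66 (adjusted p = 0.00939), beside 0.81 (adjusted p = 0.00132) for the pair and 0.23 (SE 0.14) for trametinib in the same fit. MT1X stood at 1.15 (adjusted p = 0.00939) in YM115 alone, 1.21 (adjusted p = 0.00791) in the pair and 0.58 (SE 0.24) in trametinib. In this fit of 41 libraries, 6 genes passed against solvent in YM115 (0.434%), 4 in the pair (0.289%) and 0 in trametinib (0%, with 123 or 8.89% under 0.05 before adjustment). The 4 of the pair were HBG2 and MT1X, which were higher, and the pseudogenes FTLP3 at −2.49 (adjusted p = 0.0151) and RPL10P9 at −2.80 (adjusted p = 0.0151), which were lower, whereas 0 genes were called lower in the fit of 18 libraries. DESeq2 was not run for these 3 comparisons.

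HMGA1, an architectural chromatin protein of the high mobility group, was the 1 of 1384 genes (0.0723%) for which the pair departed from the sum of the single drugs, and 94 genes (6.79%) were under 0.05 before adjustment. It had 8898, 16380 and 14210 CPM in dT solvent, 5880 to 9031 CPM (median 6714) in trametinib, 5395 to 7165 CPM (median 5688) in YM115 and 5723 to 9031 CPM (median 7414) in the pair. Bio HMGA1 levels were 13870, 14760 and 9498 CPM in solvent, 3621 to 8124 CPM (median 7444) in trametinib, 2428 to 6842 CPM (median 5283) in YM115 and 5083 to 10280 CPM (median 8844) in the pair. It was below the solvent library of its own run in 12 of 12 pair libraries, as held for 11 genes (0.678%). The log2 differences from solvent were −0.78 (SE 0.20, adjusted p = 0.223) for trametinib, −1.15 (SE 0.19, adjusted p = 0.000861) for YM115 and −0.51 (SE 0.20, adjusted p = 0.221) for the pair. The departure from the sum was 1.41 (SE 0.26, adjusted p = 0.00372), so the pair lay less far below solvent than the sum of both drugs. The shared solvent libraries enter this departure directly. Against each drug alone HMGA1 did not pass. Over the 21 refits the pair lay 0.22 to 0.36 above trametinib and 0.52 to 0.74 above YM115, and 1 of 11 other settings called the latter. Without run 2 the departure was 1.26 (adjusted p = 0.461) and without run 3 it was 1.54 (adjusted p = 0.324). The call of the departure was also lost in 1 of the 11 other settings, with an adjusted p of 0.899. For FTL the departure was −0.85 (SE 0.26, adjusted p = 0.417).

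**Figure D4:**
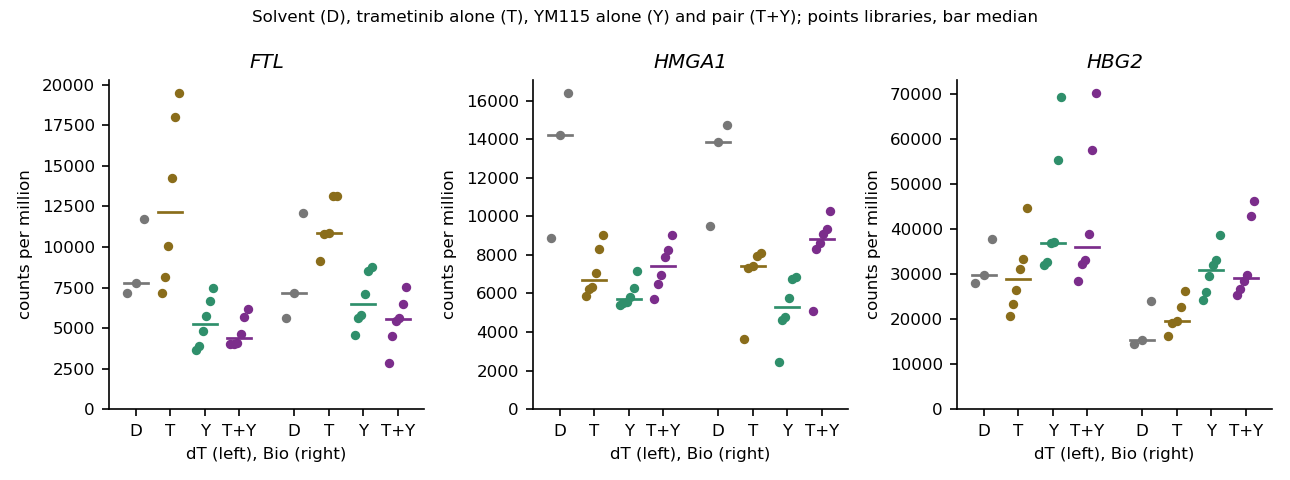
CPM of FTL, HMGA1 and HBG2 in solvent, trametinib alone, YM115 alone and the pair, 1 point per library with a bar at the median, by screen. FTL of the pair does not overlap trametinib alone in either screen, and HMGA1 of the pair has medians of 7414 and 8844 CPM.

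Pair and solvent did not overlap within either screen for 4 genes that were lower (0.247%) and 1 that was higher (0.0617%), all named after their values were seen, and none of the 5 passed the test in the 18 libraries, while FTLP3 and RPL10P9 passed in the fit of 41 libraries given above. The lower ones were the pseudogenes HMGA1P8 at −3.06, HMGA1P2 at −2.26, RPL10P9 at −3.07 and FTLP3 at −2.57, with adjusted p between 0.133 and 0.212. They rest on few reads, with at most 13 counts in a pair library for FTLP3 and at most 7 for HMGA1P8. Of their 59-base windows, 46.8% for RPL10P9, 12.4% for HMGA1P2 and 5.7% for HMGA1P8 occur in transcripts of RPL10 or HMGA1. The higher one was RPS19BP1, which binds ribosomal protein S19, at 5.04 (SE 1.72, adjusted p = 0.217), with 0 counts in the Bio solvent libraries, a level at least 51.57-fold higher in the pair than 3 counts over that group allow.

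Many of the genes nearest to the drugs were counted in few libraries, and a change in those was not detectable at this depth. Of 24 listed targets of MEK and ERK signalling 14 had a count in the 18 libraries and 0 reached the count filter. In the fit of the dT screen 1 was tested, at −2.53, and did not pass. Their summed dT level was 0 to 810.4 CPM (median 108.1) in the pair and 0 to 1403 CPM (median 579.9) in solvent, with overlapping ranges, and in the Bio screen it was 0 to 1767 CPM (median 376.9) in the pair and 0 in solvent. EGR1 was counted in 1 of the 18 libraries, ETV4 in 4, ETV5 in 5, MYC in 6, MAP2K1 in 3 and MAPK3 in 7, and CCND1, SPRY2 and SPRY4 in 0. BIRC5 was counted in 4 libraries and SLC35F2 in 2. Of 4 genes of the RAS, RAF, MEK and ERK kinase list tested, 0 passed, and MAP2K2 (MEK2) had a log2 fold change of −2.07 (SE 1.11). MAP2K2 was counted in 17 of the 18 libraries and was below its own solvent library in 11 of 12 pair libraries. Its ranges overlapped in both screens, at 66.7 to 686 CPM in dT pair libraries against 212 to 1740 CPM in dT solvent. In the Bio screen they were 0 to 1150 CPM in the pair and 957 to 2680 CPM in solvent. NONO, an RNA-binding protein linked to YM155, was counted in 16 of the 18 libraries, had a value of 1.75 (SE 1.38) and did not pass. The apoptosis list had 2 genes tested, BBC3 (PUMA) and BAX, and 0 passed. Each was counted in 8 pair libraries and 1 solvent library, the fewest that the count filter allows, so no value is read from their fit.

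Across the 30 gene lists, 269 members were tested and 38 were under 0.05 before adjustment (14.1%, against 11% of all genes tested). The 4 globins tested were all positive (median 0.93) and HBG2 alone passed. HBZ, an embryonic globin, had 886 to 2040 CPM in dT pair libraries against 419 to 734 CPM in dT solvent. In the Bio screen the HBZ ranges overlapped, at 482 to 2370 CPM in the pair and 0 to 2590 CPM in solvent. Its log2 fold change was 1.45 (SE 0.95, adjusted p = 0.612 in edgeR's quasi-likelihood test). Of 3 iron genes tested, FTL and FTH1, the light and heavy chains of ferritin, had values of −0.56 (SE 0.24, adjusted p = 0.368) and −0.60 (SE 0.97). FTL was below its own solvent library in 11 of 12 pair libraries. PCBP1, an RNA-binding protein that also carries iron to ferritin, had a value of 7.55 (SE 2.07, adjusted p = 0.212), with 0 counts in the Bio solvent libraries.

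Among 9 messenger RNAs of the mitochondrial genome tested, 3 were positive and the median was −0.20, below the all-gene median, and 0 passed. MT-CO2, a subunit of cytochrome oxidase, was at 1380 to 3160 CPM in dT pair libraries against 4610 to 9150 CPM in dT solvent and lower than its own solvent library in 12 of 12, with a fitted log2 change of −1.39 (SE 0.44, adjusted p = 0.212). Summed over the group, dT pair libraries held 32530 to 39920 CPM against 52150 to 63390 CPM, without overlap, and Bio libraries 33310 to 44040 CPM against 31110 to 63020 CPM. Of 25 nuclear genes of the respiratory chain 20 were positive (median 0.93) and 0 passed. Among the 5 of them counted in all 18 libraries the median was 0.71. COX5B, a nuclear subunit of the same oxidase as MT-CO2, had a value of 0.98 (SE 0.33, adjusted p = 0.212) and was above its own solvent library in 10 of 12. The summed level of the nuclear group was 27410 to 35240 CPM in Bio pair libraries against 16590 to 25130 CPM in Bio solvent. In the dT screen the ranges overlapped, at 21360 to 31780 CPM in the pair and 19900 to 22550 CPM in solvent.

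Ribosomal protein genes had small fold changes. Of 40 large-subunit genes tested 28 were positive with a median of 0.24, and of 29 small-subunit genes 17 were positive with a median of 0.11, both below the all-gene median, and 0 passed. With RLE scaling the medians were 0.04 and −0.09, so the sign of the small-subunit median depends on the scaling. For the 19 and 18 of them counted in all 18 libraries the medians were 0.09 and 0.06. RPL34 stood at 0.39 (SE 0.17), RPS15 at 0.29 (SE 0.12) and RACK1, a ribosome-bound scaffold protein, at 0.41 (SE 0.19). Glycolysis and hypoxia genes, 12 of 13 positive with a median of 0.82, and chaperones, 8 of 13 with a median of 0.56, held no gene that passed. ALDOA, a glycolytic aldolase, was lower than its own solvent library in 12 of 12 pair libraries with a value of −4.07 (SE 1.5, adjusted p = 0.271), opposite in sign to its list's median.

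**Figure D5:**
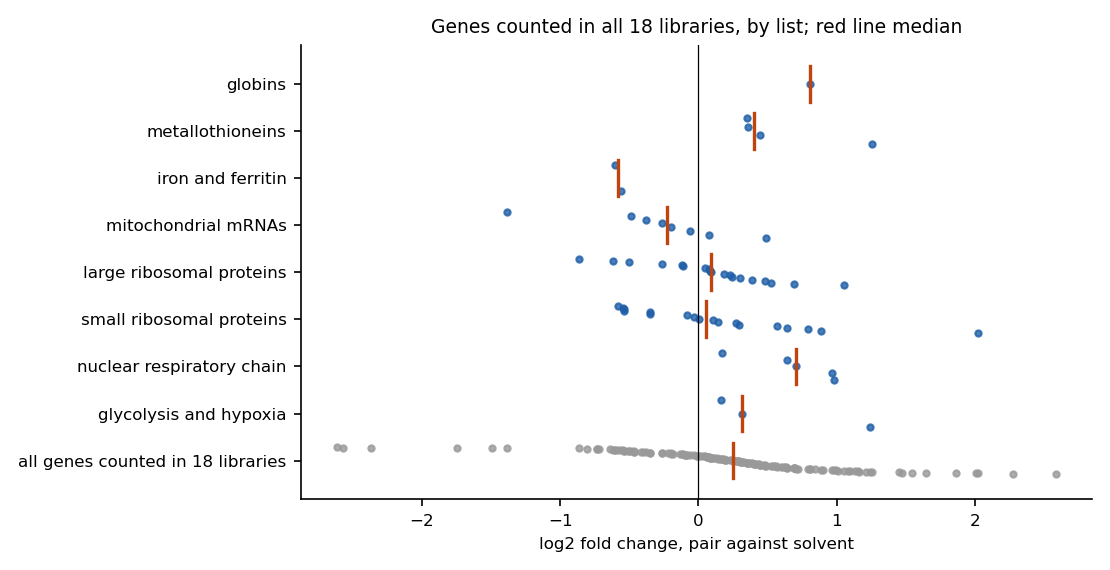
Fitted log2 fold changes, pair against solvent, of the genes counted in all 18 libraries, by gene list and for the 149 such genes together, with 1 point per gene and a line at each median. Large and small ribosomal protein genes have medians of 0.09 and 0.06 and mitochondrial messenger RNAs of −0.23, beside 0.25 for the 149 genes.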

How the data were processed

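Combi-Seq libraries of K562 cells were analysed from the counts that the authors deposited, whole-number reads per gene without normalisation, for 24965 genes in 102 libraries. The submitters' processing notes name STAR 2.4.2a and GRCh38 without their role, and whether counting used strand is not given in the sources used here. No collapsing by molecular identifiers is described, so limits taken from counts cover counting error only. The table held 0 columns of other samples and 0 entries without a gene. Symbols were matched for 24539 genes, and coordinates for 24646 from GENCODE 29 (GRCh38). Promoter windows came from RefSeq (GRCh38.p14).

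Libraries with under 1000 detected genes were left out, and genes counted in at least 50% of the libraries of a fit were tested. The fits used the glmQLFit and glmQLFTest functions of edgeR 4.0.16 (R 4.3.3) after TMM scaling, with Benjamini-Hochberg adjustment over all genes tested and 0.05 as the threshold. Comparisons with solvent, of orders and of screens used the 18 pair and solvent libraries, and those with the single drugs used 41. CPM values are counts per 1000000 counts of the library and are not scaled for gene length, so they compare 1 gene between libraries, while fold changes also carry the TMM factors. Fitted fold changes of genes with counts of 0 depend on the prior count. Where a group had no count, the fold was set against 3 counts over the group and is a lower bound.

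Screen and run formed the block, since the run number of a title marks libraries processed together. In the dT screen, residuals of libraries of the same run correlated with a mean of −0.0555 and those of other runs with −0.1475. In the Bio screen the means were −0.0464 and −0.1511. Replicates are repeated runs, 0 library pairs were identical, and chi-square divided by its degrees of freedom was at least 56.695 between replicates.

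Genes were named by a rule. It takes genes past the threshold with the same sign in each screen and order, 15 drug target genes, up to 4 members of each list with the smallest p, and the called genes of the other comparisons (otherwise the 3 with the smallest p). Not each gene so selected is described, and some items are not reported here. The members and the gene lists were chosen with earlier results of these data known. Alternatives were another scaling, other filters, DESeq2 1.42.0, thinning, no block, the separate DMSO controls, families summed, a mean of at least 500 CPM, and each library and run left out in turn. Summing families and the CPM minimum were chosen after seeing the data. The fits were tested on simulated data. Tables and figures used python 3.11.15, pandas 2.3.3, numpy 2.4.6 and matplotlib 3.10.9.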

Additional observations from a re-analysis of the deposited data

Results flagged for a closer look

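Of 62 groups of 6 pair libraries tested with Dixon's test, 2 had a library set apart from the rest, where chance gives about 1 in 20 groups. FTLP3 reached 46.21 CPM in dT Trametinib_YM115 run 3, with the next library at 16.12 CPM. BAX reached 671.7 CPM in Bio Trametinib_YM115 run 1, with the next at 63.9 CPM.

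The difference itself passed edgeR's quasi-likelihood test for 3 genes. CHPT1 differed between the orders by 12.4 on the log2 scale and PPM1N by 4.43, both higher in Trametinib_YM115, and the pair effect on CYBA differed between the screens by −10.67, dT minus Bio. CHPT1 and PPM1N were counted in 9 of the 18 libraries and reached the count filter through the order in which they were high, and CYBA had 0 counts in the Bio solvent libraries, so the sizes of these fitted differences depend on the prior count.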

How the results depend on the processing

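Counts of genes past the threshold were small and moved with most settings. For the pair against solvent, 2 genes became 0 with RLE scaling, 1 with library totals only, 4 with filterByExpr, 9 with no filter, 170 with DESeq2, 1 after thinning, 452 (31 higher, 421 lower) against the separate DMSO controls and 8 with a mean of at least 500 CPM. The genes called lower were HSDL1 and PYCR1 with filterByExpr and with no filter. With a mean of at least 500 CPM they were HMGA1, PYCR1, FTL and MT-CO2. The median of all genes moved from 0.79 to 0.62 with RLE scaling and 0.63 with library totals. In the dT screen 0 became 12 with no filter, 165 with DESeq2 and 11 against the separate controls. In the Bio screen 1 became 0 (RLE), 3 (filterByExpr), 6 (no filter), 106 (DESeq2), 66 (separate controls) and 2 (500 CPM). For Trametinib_YM115, 2 became 1 (totals), 4 (filterByExpr), 0 (count in 50% of each treatment), 10 (no filter), 163 (DESeq2), 1 (thinned) and 4 (500 CPM). For YM115_Trametinib, 0 became 5 (filterByExpr), 5 (no filter), 126 (DESeq2) and 3 (500 CPM). For the order difference, 2 became 1 (totals), 1 (filterByExpr), 0 (count in 50% of each treatment), 96 (DESeq2) and 0 (thinned). For the screen difference, 1 became 0 (RLE, totals and thinned), 3 (filterByExpr), 2 (no filter) and 152 (DESeq2). Against trametinib alone 3 became 6 (filterByExpr), 11 (no filter), 49 (DESeq2), 6 (thinned) and 5 (500 CPM), against YM115 alone 0 became 6 (no filter) and 40 (DESeq2), and for the departure from the sum 1 became 10 (filterByExpr), 9 (no filter) and 55 (DESeq2). The cause was not tested.

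Without the replicate block, so without pairing by screen and run, the pair against solvent had 0 calls, the Bio screen 0, Trametinib_YM115 1 and the order difference 1, and HBG2 was at 0.83 (adjusted p = 0.144) and MT1X at 1.24 (adjusted p = 0.0986). Against trametinib alone 2 genes, FTL and FTLP3, were then called, and HBG2 was at 0.64 (adjusted p = 0.0949). CHPT1 in YM115_Trametinib against solvent turned from −0.47 to 0.84 without the block, to 0.23 without dT YM115_Trametinib run 3 and to 1.03 without run 3 (−0.64 to 1.03 over 11 refits).

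With a library or run left out, calls ran from 0 to 3 for the pair, 0 to 1 in the dT and in the Bio screen, 0 to 3 for Trametinib_YM115, 0 to 2 for YM115_Trametinib, 0 to 2 for the order, 0 to 1 for the screen difference, 1 to 3 against trametinib, 0 to 1 against YM115 and 0 to 1 for the departure. Without a run, total counts differed by 186200 to 234600, detected genes by 967.4 to 1278 and the mitochondrial share by −2.035 to −1.204 percentage points.

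Signs turned against the separate DMSO controls for FTL (0.54), HMGA1 (1.34), BAX (−0.82) and MT2A in the dT screen (−0.21). MT2A in the Bio screen turned to −0.17 with RLE scaling, −0.0854 with totals only and −0.16 after thinning. MT1X against YM115 alone, 0.06, turned to −0.064 (RLE), −0.0362 (totals), −0.0284 (DESeq2), −0.10 (thinned) and −0.0611 (500 CPM), and FTL against YM115 alone, −0.24 to 0.0093 over the refits, to the latter without run 1. HBG2 kept its direction under each setting (0.59 to 1.96) and MT1X too (1.03 to 3.15). HBG2 lost its call with RLE scaling (adjusted p = 0.0559) and no filter (0.214), and MT1X with RLE (0.146), totals only (0.212), no filter (0.581) and thinning (0.0909).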

Other observations

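Proteasome and ubiquitin genes, which carry out protein breakdown, were positive in 14 of 14 tested with a median log2 fold change of 2.80, beside 0.79 for all genes tested, and 0 passed the adjusted threshold in edgeR's quasi-likelihood test (3 were under 0.05 before adjustment). None of the 14 was counted in all 18 libraries. Their summed level overlapped in the dT screen, at 5010 to 10520 CPM in the pair and 4029 to 8432 CPM in solvent, and in the Bio screen, at 3742 to 9752 CPM and 2371 to 4176 CPM.

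Genes of the ATF4 and amino acid stress list had a positive median of 1.79 over 8 tested genes, 6 of them positive and 0 past the adjusted threshold, while their summed level was lower. Over the 25 list genes in the table it was 308.7 to 3822 CPM in Bio pair libraries against 5444 to 10430 CPM in Bio solvent, without overlap, and 527.6 to 4727 CPM against 4352 to 5416 CPM in the dT screen. The median and the sum cover different genes, since the sum includes members below the count filter. PYCR1 is 1 such member. With filterByExpr it was called lower in the pair, at −10.49 (edgeR's quasi-likelihood test, adjusted p = 0.00338). The part of each member in the sum was not tested.

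Actin and tubulin genes were positive in 6 of 9 tested (median 0.63), with summed levels of 6642 to 12320 CPM in Bio pair libraries against 1993 to 5976 CPM in Bio solvent and overlapping ranges in the dT screen.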
